A study of Mus musculus with 6 samples.

Results

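The miR-30 family comprised 6 of the 898 miRNA genes in a small-RNA sequencing table of mouse embryonic stem cells (ESCs) and neuronal cells (NCs). The genes were mir-30a, mir-30b, mir-30c-1, mir-30c-2, mir-30d and mir-30e, taken by name. They lie in the genome as 3 pairs, written here as the clusters a/c-2, e/c-1 and b/d. ESCs were the E14Tg2a line at passages 37 to 40, kept in leukemia inhibitory factor (LIF). NCs were the same line after LIF was withdrawn and 1 µM retinoic acid (RA) was given for 48 h. Each group had 3 libraries, each from RNA of 2 plates of 60 mm, so that the p-values measure the spread between cultures of 1 cell line. The libraries were processed as separate replicates of the line, and no independent line was measured.

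A miRNA is cut from a hairpin precursor, and 1 arm of the hairpin is usually loaded into an Argonaute protein. Bases 2 to 8 of the loaded strand, the seed, pair with messenger RNAs that are then repressed, so that miRNAs with 1 seed can act on overlapping targets. The miR-30 miRNAs are abundant in differentiated tissues such as heart and kidney, and Snai1, a driver of epithelial to mesenchymal transition, is among their known targets. The retinoic acid step measured here takes pluripotent cells towards a neural fate.

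The mature sequences are shown because they set which genes the reads could tell apart. RefSeq sequences on GRCm38.p6 matched 4 of the 6 genes, and they gave 3 different 5p strands. Capitals mark the seed, and U is written as in RNA.
miR-30a-5p: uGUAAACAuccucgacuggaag
miR-30e-5p: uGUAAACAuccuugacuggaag
miR-30c-5p: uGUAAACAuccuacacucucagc

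The miR-30a and miR-30e strands had the same base at 21 of 22 positions and differed by C13U, counted from the 5′ end of miR-30a. The miR-30a and miR-30c strands had the same base at 17 of 22 positions, with the substitutions C13A, G14C, G18C, G19U and A20C. All 3 strands shared their first 12 bases. The miR-30c strand is made by both mir-30c-1 and mir-30c-2, so reads of this strand cannot be placed at 1 gene.

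The opposite arms, shown because they split the family by another seed, fell into 2 sets.
miR-30a-3p: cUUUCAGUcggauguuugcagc
miR-30e-3p: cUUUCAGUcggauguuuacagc
miR-30c-1-3p: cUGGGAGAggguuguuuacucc
miR-30c-2-3p: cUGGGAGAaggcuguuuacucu

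The 3p arms of mir-30a and mir-30e shared the seed UUUCAGU, while those of mir-30c-1 and mir-30c-2 shared UGGGAGA. The table counted reads by gene and did not separate the arms. Each value below therefore holds both arms, and the share of each arm was not measured.

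On GRCm38.p6, the mir-30a hairpin lies on the plus strand at chr1:23272269-23272339, and its annotation names no other gene there. mir-30c-2 follows on the same strand at chr1:23291701-23291784, 19361 bases further on, in an exon of the long noncoding RNA gene Gm27028. mir-30e (chr4:120772606-120772697) and mir-30c-1 (chr4:120769534-120769622) lie on the minus strand with 2983 bases between them. Both are in introns of Nfyc and on its strand, a gene for a subunit of the CCAAT-binding factor NF-Y. The gene Mir30f is annotated opposite mir-30e, on the other strand.

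The deposited table gave 1 mean per group and no values for single libraries. The means were of reads divided by a size factor, which sets the libraries to a common scale, and are called normalized reads here. Whole reads of the 3 libraries were recovered from the decimals of each mean, for all 6 members in both groups. Within each group the library with the largest size factor is called A, the next B and the smallest C, and these are not tied to the labelled replicates. The members had from 304 to 72643 reads in a library, so none was near the floor of 3 reads.

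Library C stood apart in both groups. Over 245 miRNAs, its log2 deviation from the mean of A and B had an SD of 1.33 in ESCs and 1.16 in NCs, whereas the log2 difference between A and B had an SD of 0.288 and 0.233. The deviations of the 2 groups went together across miRNAs (Pearson's r = 0.857, over miRNAs of the same 6 libraries, given as a description). Results are therefore given without a covariate, with library C set apart as a covariate, and in A and B alone. ESC markers of the miR-290 and miR-302 clusters summed to 136459 normalized reads in ESCs and 31066 in NCs. The RA and neural markers summed to 0.415% of all signal in ESCs and 50.7% in NCs, of which most was mir-10a, a miRNA of the Hox clusters. Each of the 3 copies of mir-124, the miRNA that marks neurons, had a mean of 2.09 to 2.70 in ESCs, against 5.19 to 6.02 in NCs, close to the means that 3 reads per library give (3.51 and 3.17). Of the 7 markers of other lineages, 5 were in the table and 2 of these were at 0 in both groups. Their sum was 927 in ESCs and 359 in NCs, nearly all from mir-142, a blood cell miRNA with 924 and 357, and its part in the results was not tested.

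The group means of the members moved in different directions between ESCs and NCs. mir-30a was 1.86-fold higher in NCs, and mir-30d and mir-30e were each higher by 0.58 on the log2 scale of the group means. Both copies of mir-30c were lower in NCs, at 0.571 and 0.570 of their ESC means, and mir-30b was at 0.946. The median log2 ratio of the 6 group means was 0.25, against -0.04 over the 517 miRNAs above 0 in both groups. Its direction was not fixed, since it was -0.23 with both groups set to equal summed signal and 0.029 without ESC library C. With the mir-30c copies counted once it was 0.58. The family's summed signal was 3.73% of all miRNA signal in ESCs and 4.18% in NCs, by the authors' means. Without mir-10a in the sum, the shares were 3.74% and 7.90%.

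**Figure D1:**
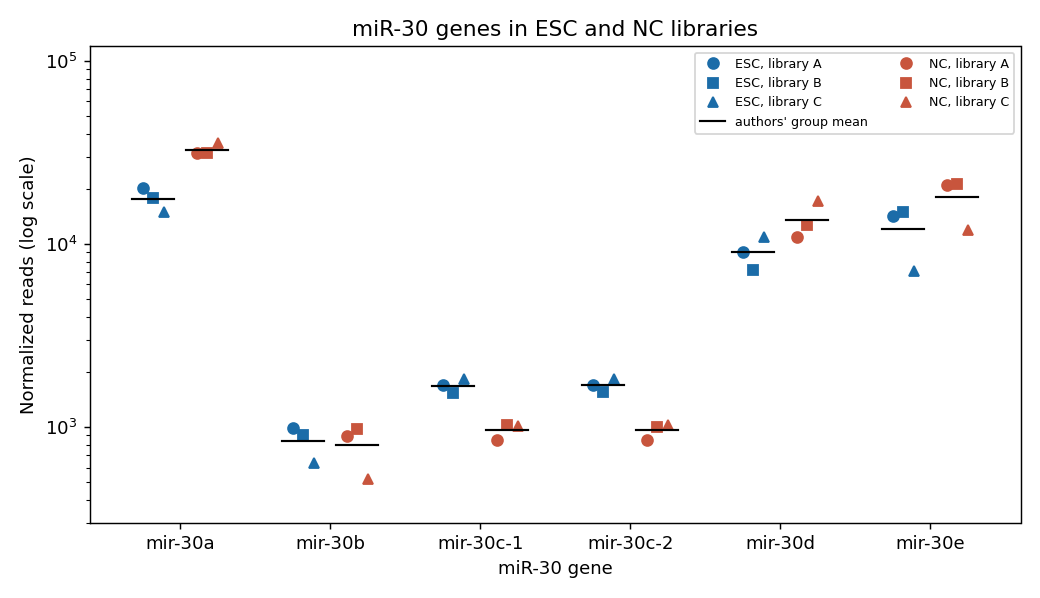
Normalized reads (log axis) of each miR-30 gene in the 3 ESC libraries (blue) and the 3 NC libraries (red), with circles, squares and triangles for libraries A, B and C and a line for the authors' group mean. The NC libraries lie above all ESC libraries for mir-30a and below them for both mir-30c genes, while the groups overlap for mir-30b, mir-30d and mir-30e.

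mir-30a, the most abundant member, had 20172, 17786 and 14885 normalized reads in ESC libraries A, B and C. In NC libraries A, B and C it had 31491, 31214 and 35440. Every NC library was thus above every ESC library, and C was the lowest in ESCs but the highest in NCs in the set of NC reads kept here. The mean was 17614 ± 2647 (SD, n = 3) in ESCs and 32715 ± 2364 (SD, n = 3) in NCs. The log2 difference was 0.89 with an SE of 0.231 (limma-voom, Benjamini-Hochberg adjusted p = 0.0464 over 330 miRNAs tested). This call did not hold when any 1 of the 6 libraries was left out, with adjusted p-values from 0.0708 to 0.195 in limma-voom. Several sets of whole reads gave the NC means of mir-30a, mir-30d and mir-30e, and the kept set of each is shown. With the next best set for each, the log2 difference of mir-30a was 0.87 with an adjusted p of 0.125 (limma-voom). In that set of mir-30a, NC library C was the lowest in NCs (26726).

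mir-30c-1 and mir-30c-2 gave nearly the same values. mir-30c-1 had 1687, 1541 and 1818 normalized reads in ESC libraries A, B and C, and 848, 1019 and 1017 in NC libraries A, B and C. mir-30c-2 had 1689, 1545 and 1825 in the ESC libraries, and 848, 1004 and 1029 in the NC libraries. For both genes, the highest NC library was below the lowest ESC library. The log2 difference was -0.81 for each copy, with an SE of 0.251 for mir-30c-1 and 0.252 for mir-30c-2, and it missed the threshold of 0.05 (limma-voom, adjusted p = 0.0795 for each). In NC library A both copies had 1955 reads, and the within-library ratio of mir-30c-1 to mir-30c-2 differed from 0 by at most 0.0204 on the log2 scale in the 6 libraries. The copies thus count as 1 measurement of the shared strand, not as 2 genes that moved alike.

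mir-30d had 9041, 7194 and 10932 normalized reads in the ESC libraries and 10892, 12639 and 17121 in the NC libraries, in the order A, B and C. In the kept set, library C was the highest in both groups, and the groups overlapped by ESC library C against NC library A. The log2 difference was 0.56 with an SE of 0.291 (limma-voom, adjusted p = 0.289). With the next best set of NC reads it was 0.37 with an SE of 0.511.

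mir-30e had 14253, 14980 and 7132 normalized reads in the ESC libraries and 20931, 21321 and 11935 in the NC libraries, in the same order. Here library C was the lowest in both groups, and the groups overlapped because NC library C lay below ESC libraries A and B. The log2 difference was 0.60 with an SE of 0.392 (limma-voom, adjusted p = 0.410). With the next best set of NC reads it was 0.11 with an SE of 0.849.

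mir-30b, the least abundant member, had 981, 905 and 634 normalized reads in the ESC libraries and 896, 969 and 520 in the NC libraries. Library C was again the lowest in both groups, and the ranges overlapped over most of their width. The log2 difference was -0.11, with a 95% interval from -0.95 to 0.73 (limma-voom, adjusted p = 0.895).

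By this fit, 1 of the 6 members was called higher in NCs (mir-30a) and 0 were called lower. Over all 330 miRNAs tested, 15.8% were called, 10% higher and 5.76% lower. At an unadjusted p under 0.05, 3 of the 6 members were below the threshold (mir-30a, mir-30c-1 and mir-30c-2), in limma-voom and in limma-trend, against 25.8% and 24.5% of the 330 miRNAs. limma-trend called 1 member and 15.2% of the 330. The ESC and NC libraries did not overlap for 3 of the 6 members, 1 above and 2 below, and for 30.6% of the 330 miRNAs (16.7% with NC above and 13.9% with NC below). With the mir-30c copies taken as 1 measurement, these counts were 1 called, 2 at an unadjusted p under 0.05 and 2 without overlap, of 5.

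With library C set apart as a covariate, 5 of the 6 members were called, 3 higher and 2 lower. In that fit 45.5% of the 330 miRNAs were called, 24.2% higher and 21.2% lower. With the mir-30c copies taken as 1 measurement, 4 of 5 were called, 3 higher and 1 lower. mir-30a was higher by 0.89 (SE 0.131, limma-voom adjusted p = 0.000276), mir-30d by 0.56 (SE 0.128, adjusted p = 0.00484) and mir-30e by 0.59 (SE 0.108, adjusted p = 0.00120). mir-30c-1 and mir-30c-2 each had a log2 difference of -0.82, with limma-voom adjusted p-values of 0.000637 and 0.000575. The differences were close to those of the first fit, and it was the standard errors that were smaller. The NC reads of mir-30a, mir-30d and mir-30e had been kept by their A to B ratio, so their standard errors rest partly on that choice. The next best sets of NC reads were not run in this fit. mir-30b was not called, at -0.11 with a 95% interval from -0.41 to 0.19 (limma-voom, adjusted p = 0.556). An interval of that width holds both a moderate fall and a small rise.

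**Figure D2:**
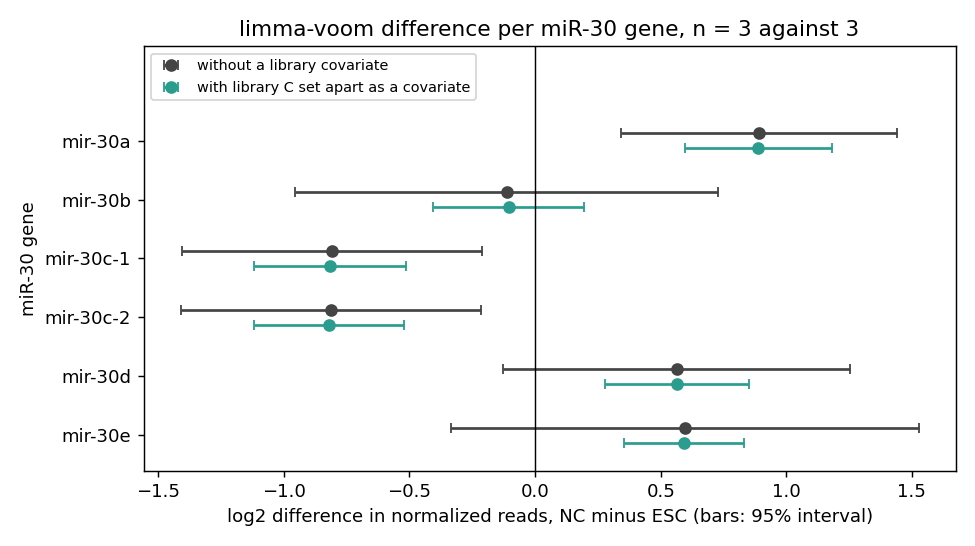
Log2 difference in normalized reads (NC minus ESC, x axis) of each miR-30 gene from limma-voom over 3 ESC and 3 NC libraries, without a covariate (grey) and with library C set apart as a covariate (green), with bars for the 95% interval. The points of the 2 fits nearly coincide, and with the covariate the intervals of all genes but mir-30b lie on 1 side of 0.

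By the kept sets of NC reads, libraries A and B alone gave the same sign as library C alone for every member. The sign of mir-30b was not fixed within A and B. For mir-30b the log2 ratio of NC to ESC was -0.13 between the A libraries and 0.10 between the B libraries. In A and B, the log2 difference was 0.72 for mir-30a, 0.52 for mir-30d, 0.53 for mir-30e, -0.81 for mir-30c-1, -0.82 for mir-30c-2 and -0.02 for mir-30b. In library C alone, which has no replicate, it was 1.25 for mir-30a, 0.65 for mir-30d, 0.74 for mir-30e, -0.84 for mir-30c-1, -0.83 for mir-30c-2 and -0.29 for mir-30b. The fit on A and B called every member but mir-30b (4 of 5 with the mir-30c copies taken as 1), and it called 51.2% of the 338 miRNAs tested. The NC reads of mir-30a, mir-30d and mir-30e had been kept by their A to B ratio. The calls of these genes in A and B thus do not stand apart from that rule. In the next best sets, NC library C had 8407.7 normalized reads for mir-30d and 3221.5 for mir-30e. Both lay below ESC library C (10932 and 7132), while mir-30a lay above it (26726 against 14885).

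Members differed in how library C stood to A and B. Its log2 deviation for mir-30e was -1.03 in ESCs and -0.82 in NCs, and for mir-30b -0.57 and -0.84. For mir-30d it was 0.44 in ESCs and 0.55 in NCs. Both copies of mir-30c deviated little, by 0.17 to 0.18 in the ESC libraries and by 0.13 to 0.16 in the NC libraries. By the kept sets of NC reads, mir-30a was the exception, with -0.35 in ESCs and 0.18 in NCs. By these sets, mir-30e and mir-30d shifted in opposite directions in the same libraries, although their group ratios were alike. In the next best sets, NC libraries A, B and C had 27935, 43484 and 26726 normalized reads for mir-30a. For mir-30d they had 7336, 24909 and 8408, and for mir-30e 17374.5, 33590.5 and 3221.5. The NC deviations were not computed with these sets, so the sign change of mir-30a and the NC direction of mir-30d hold only for the kept sets.

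**Figure D3:**
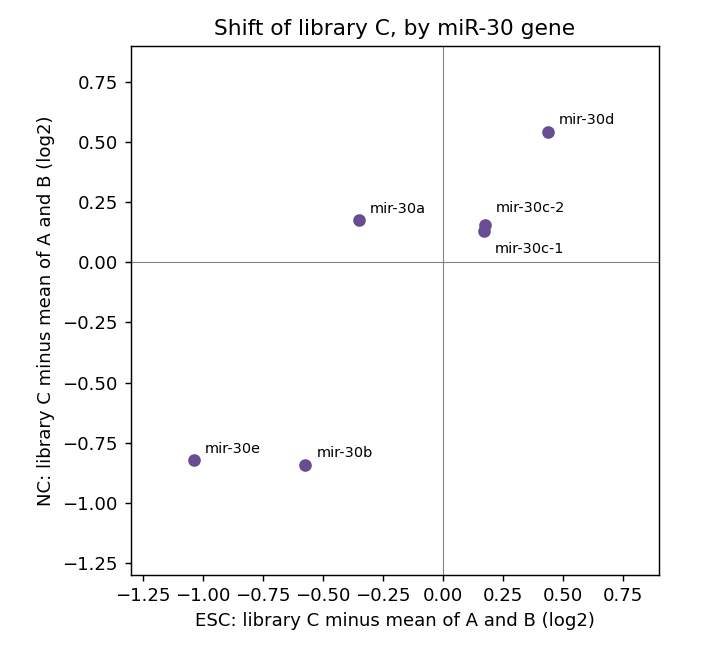
Log2 deviation of library C from the mean of libraries A and B for each miR-30 gene, in ESCs (x axis) and in NCs (y axis). mir-30e and mir-30b lie low in both groups, mir-30d lies high in both, the mir-30c genes lie near 0, and mir-30a alone changes sign, from -0.35 to 0.18. The NC values of mir-30a, mir-30d and mir-30e are from the kept sets of NC reads, and were not computed with the next best sets.

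The order of the members by group mean was mir-30a, mir-30e, mir-30d, the mir-30c genes and mir-30b in both groups. Levels are in normalized reads per gene, with mature strands of nearly equal length (22 or 23 bases) where known. The order did not hold in every library, since in library C mir-30d was above mir-30e in ESCs (10932 against 7132). The same held in NCs by the kept sets (17121 against 11935). In ESCs, mir-30a, mir-30e and mir-30d were ranked 10, 15 and 20 among all miRNAs by mean, and in NCs 8, 12 and 14. The mir-30c genes were ranked 45 and 46 in ESCs but 63 and 64 in NCs, and mir-30b was at rank 70 in ESCs and 68 in NCs. In ESCs, neighbours overlapped for mir-30a with mir-30e (14885 against 14980) and for mir-30e with mir-30d. In NCs, mir-30a stood clear of mir-30e by the kept sets of NC reads, while mir-30e overlapped with mir-30d and the mir-30c genes with mir-30b. In the next best sets, the lowest NC library of mir-30a (26726) lay below the highest of mir-30e (33590.5).

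Ratios inside a library do not depend on how libraries are scaled. With the 2 copies of mir-30c counted once, mir-30a made up 41.9% to 43.7% of the family's reads in the ESC libraries and 46.5% to 53.7% in the NC libraries. miR-30c made up 3.64% to 5.14% in ESCs, against 1.30% to 1.55% in NCs. For mir-30b the shares were 1.79% to 2.13% and 0.787% to 1.44%. None of these ranges overlapped between the groups, whereas those of mir-30d (17.0% to 30.9% and 16.7% to 25.9%) and mir-30e (20.1% to 35.3% and 18.1% to 32.2%) did. Shares of 1 sum are bound to each other, and mir-30b by itself differed by only -0.11 (log2, limma-voom adjusted p = 0.895). The NC shares use the kept sets of NC reads for mir-30a, mir-30d and mir-30e, and were not computed with the next best sets. mir-30a, mir-30d and mir-30e together were 93.8% ± 0.667 (SD, n = 3) of the family in ESCs and 97.3% ± 0.307 (SD, n = 3) in NCs. The family sum was 41316 ± 5448 normalized reads in ESCs and 66084 ± 1049 in NCs (SD, n = 3).

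Ratios between the 2 genes of a genomic pair were compared after the values of the single genes had been seen. The log2 ratio of mir-30a to mir-30c-2 was 3.58, 3.53 and 3.03 in ESC libraries A, B and C, and 5.22, 4.96 and 5.11 in the NC libraries. It was 3.28-fold higher in NCs, and the groups did not overlap. The log2 ratio of mir-30e to mir-30c-1 was 3.08, 3.28 and 1.97 in the ESC libraries, against 4.63, 4.39 and 3.55 in the NC libraries. It was 2.66-fold higher in NCs, again without overlap in the kept sets of NC reads. The next best set for mir-30e had 3221.5 normalized reads in NC library C, against 11935.3 in the kept set. The ratios were not computed with the next best sets. The log2 ratio of mir-30d to mir-30b was 3.20, 2.99 and 4.11 in the ESC libraries, which overlapped with 3.60, 3.71 and 5.04 in the NC libraries. The exact two-sided permutation p-values were 0.1, 0.1 and 0.4 (adjusted over the 3 ratios 0.15, 0.15 and 0.4). With 3 libraries against 3 the smallest p possible is 0.1, so the test cannot pass 0.05. In A and B alone the log2 differences of the 3 ratios were 1.53, 1.33 and 0.56, and in library C alone they were 2.08, 1.58 and 0.93. By the kept sets of NC reads, each ratio was without overlap in A and B. With 2 libraries per group this is easily reached, and those sets had been kept by their A to B ratio. For mir-30d over mir-30b, ESC library C lay above NC libraries A and B. The next best set for mir-30d had 7335.8 normalized reads in NC library A, against 10891.9 in the kept set. Whether the overlap came from that ESC library alone was not tested with the next best set. Since the miR-30c strand is the same from both genes, a ratio with 1 copy holds reads that may come from the other.

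**Figure D4:**
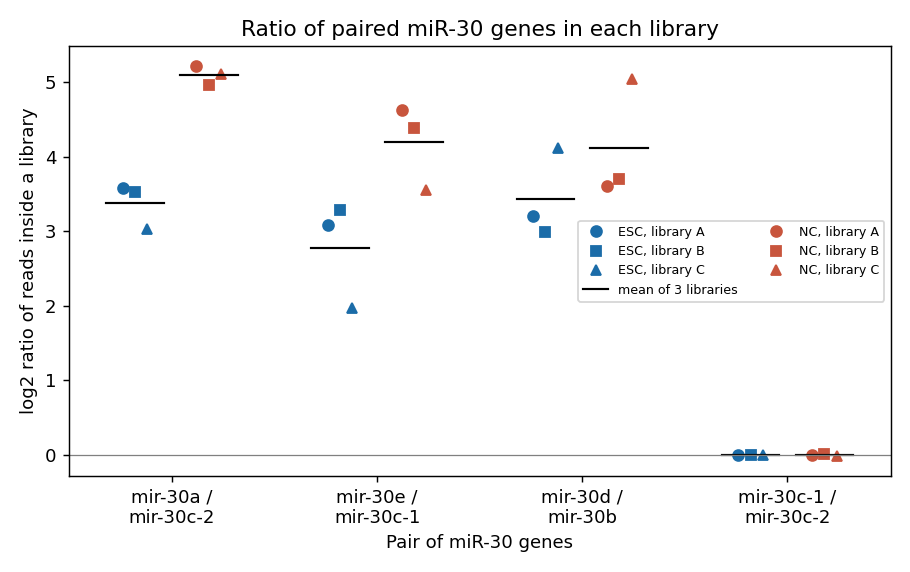
Log2 ratio of reads inside each library for 4 pairs of miR-30 genes, with 3 ESC libraries (blue), 3 NC libraries (red) and a line for the mean of the 3. The NC libraries lie above the ESC libraries for mir-30a over mir-30c-2 and for mir-30e over mir-30c-1, overlap for mir-30d over mir-30b, and lie at 0 for the mir-30c copies. The NC reads of mir-30a, mir-30d and mir-30e are the kept sets of several that fitted.

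Whole clusters were compared as sums over their 2 genes. The a/c-2 cluster over the e/c-1 cluster differed by 0.34 (log2, NC minus ESC), over the b/d cluster by 0.28, and the e/c-1 cluster over the b/d cluster by -0.06. The exact two-sided permutation p-values were 0.5, 0.5 and 0.8 (adjusted 0.75, 0.75 and 0.8). All 3 ratios overlapped between the groups over the 3 libraries, a test that does not set library C apart. In A and B alone the differences were 0.21, 0.16 and -0.05, and in C alone 0.59, 0.52 and -0.08. In A and B alone the ratio of a/c-2 to e/c-1 did not overlap between the groups, while the other 2 ratios did. These cluster ratios, too, used only the kept sets of NC reads, and with 2 libraries per group a lack of overlap is easily reached.

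Outside the 6 members, mir-384 was the other miRNA of the table that RefSeq gives the same seed, and it is shown to set its level beside theirs. It lies on the minus strand at chrX:105344332-105344354.
miR-384-5p: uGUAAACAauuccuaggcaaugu

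mir-384 had 12, 4 and 0 reads in ESC libraries A, B and C and 55, 16 and 3 in the NC libraries. Its group mean was 3.89 normalized reads in ESCs and 15.1 in NCs, far below every member. The log2 difference of 2.24 (SE 0.910) missed the threshold (limma-voom, adjusted p = 0.175), and with library C set apart it was 1.93 (SE 0.416, adjusted p = 0.00366). mir-30f, antisense to mir-30e, had 2, 1 and 0 reads in the NC libraries and 0 in the ESC libraries, which is at or under the floor.

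Other families often followed in differentiation gave different pictures. A list of 12 genes of the let-7 family, which opposes the ESC state, held mir-98 but not let-7j (means of 3.21 in ESCs and 1.69 in NCs). Of the 12, 11 were tested, with 2 called higher (let-7c-1 and let-7c-2), 0 lower and 9 not called in limma-voom. With library C set apart, 3 were higher, 4 lower and 4 not called. The median log2 ratio was 0.10 over the 12 listed genes and -0.03 over the 11 tested, and the 12 were at most 0.127% of all signal, far less than miR-30. All 3 miR-26 genes were tested, with a median log2 ratio of 0.47. None was called without the covariate and all 3 were called higher with it. Of the 6 miR-23/27/24 genes, 3 were tested, and 1 (mir-27b) was called lower without the covariate and 2 with it. The median log2 ratio of these 3 was -0.55, and the other 3 genes were at or near the floor in at least 1 group. The 4 miR-29 genes, known from mature neurons, summed to 2.90 normalized reads in ESCs and 5.37 in NCs, and none passed the filter.

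The mean pattern of the 6 members over the 6 libraries was compared with that of 271 other miRNAs, each of mean 20 or more. The closest by Pearson's r were mir-22 (0.855), mir-677 (0.830), mir-146b (0.824), mir-106a (0.821) and let-7f-2 (0.810), given as a description. All 5 were lowest in library C in both groups, as mir-30b and mir-30e were. Among the members themselves, mir-30a had an r of 0.702 with mir-30d and 0.628 with mir-30e. These ranked only 50 and 58 among all miRNAs compared with mir-30a. With mir-30c-1, mir-30a had an r of -0.933, while mir-30d and mir-30e had an r of -0.07. All these correlations use the kept sets of NC reads for mir-30a, mir-30d and mir-30e, and were not computed with the next best sets.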

How the data were processed

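Small-RNA libraries of 3 ESC and 3 NC cultures were grouped by their labels. The authors deposited 1 table of 898 miRNA genes. Its signal columns held, as the authors' values, group means of reads divided by a size factor. Columns of the authors' own comparison (fold change, its log2, p-value and adjusted p-value) were not used. The submitters' processing notes name DESeq and mm10. The aligner, the adapter trimming and the rule for reads that map to several genes are not given in the sources used here, and these can move reads between near-identical genes.

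Every library adds whole reads times a fixed step to its group mean, and means carry 10 decimals, so that whole reads were found by enumeration for means up to 40000. Reads were resolved for 541 of the 549 miRNAs detected in ESCs and 596 of the 602 detected in NCs, which held 26.5% and 25.8% of the summed signal. Resolved reads ranged from 179434 to 887292 per library, and the size factors of A, B and C were 1.62, 0.937 and 0.547 for ESCs, against 2.31, 0.977 and 0.585 for NCs. Floors of 3 reads cover counting error only. For the NC reads of mir-30a, mir-30d and mir-30e, several solutions fitted the mean. The 1 whose log2 ratio of A to B lay in the range of other abundant NC miRNAs (-0.50 to 0.31) was kept.

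limma-voom (limma 3.58.1, R 4.3.3) was run on these reads with the recovered size factors and a filter of at least 10 reads in at least 3 libraries, with Benjamini-Hochberg adjustment over the 330 miRNAs tested and a threshold of 0.05. The table held no counts per library, so no count model was used. Ratios within a library were compared by exact permutation (scipy 1.17.1). Steps were tested on simulated data. Sequences and their positions were RefSeq's on GRCm38.p6, and hosts were GENCODE's on the same assembly. Named miRNAs were the 6 members, others with the same seed, 4 comparison families, marker lists and the 5 closest patterns. The members and lists were chosen with earlier results of these data known. Alternatives were other scalings, filters, limma-trend, a covariate for library C and leaving out each library.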

Additional observations from a re-analysis of the deposited data

How the results depend on the processing

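The median log2 ratio of the 6 members was 0.25. It was -0.23 with both groups set to equal summed signal and 0.69 with equal sums without mir-10a. With the mir-30c copies counted once it was 0.58, and with 1 library left out 0.03 to 0.31 (0.029 without ESC library C). The scalings shift every log2 ratio by -0.48 and 0.44, and under both the signs of mir-30a, mir-30d, mir-30e and the mir-30c genes did not change. With equal sums mir-30a was at 0.42, but mir-30d and mir-30e were at only 0.11 and 0.10, below their errors of 0.45 and 0.67, and mir-30b turned from -0.08 to 0.36 without mir-10a. The family share in NCs was 7.90% without mir-10a. The number of miRNAs called was 52, against 150 with the covariate, 173 in libraries A and B, 32 with 10 reads in every library and 17 to 54 with 1 library left out. The low counts were 17 and 19 (ESC library A or B left out) and 29 and 22 (NC library A or B left out). The number of members called was 1, against 5 with the covariate and 5 in A and B. It was 0 without the filter, with upper quartile scaling, with a 2-fold minimum, with the next best sets of NC reads (added after the data were seen) and 0 with any library left out, all in limma-voom. At an unadjusted p under 0.05 these fits gave 1 to 3 members, and 63 to 106 miRNAs of the 330 to 343 tested (98 of 624 without the filter). The next best sets of NC reads were not run with the covariate or in A and B alone. For mir-30a the adjusted p over 13 alternatives ran from 3.40e-05 to 0.195. The mir-30b difference ran from -0.33 to 0.19 with 1 library left out, and changed sign without ESC library A (0.01) and without NC library C (0.19). The ratio of clusters e/c-1 to b/d ran from -0.46 to 0.36 with 1 library left out and was 0.072 without the mir-30c genes, so its sign is not fixed. The ratio of mir-30a to mir-30c-2 ran from 1.54 to 1.82 and that of mir-30e to mir-30c-1 from 1.01 to 1.73 with 1 library left out. Neither ratio was computed with the next best sets of NC reads. Where calls changed, the cause was not tested, except that fewer libraries or a longer list of tested miRNAs follow from the setting itself. No paired analysis was possible because the group means and the recovered libraries carry no replicate number.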
